A study of Mus musculus with 6 samples.

Results

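The 6 libraries of this series, RNA sequencing of mouse aorta, were put on a fat-rich or a fat-poor side chosen by their level of Adipoq, the gene of the adipocyte hormone adiponectin. All 6 libraries were members. The 3 libraries with Adipoq at 150 FPKM or more, wild type 2, wild type 3 and heterozygote 2, formed the fat-rich side, and the 3 below it, wild type 1, heterozygote 1 and heterozygote 3, the fat-poor side. FPKM is a level per length of gene and per read of the library. Every mouse was C57BL/6 and 15 weeks old, having been fed a normal diet since week 8, that is for 7 weeks. The study has 3 libraries of wild-type mice and 3 of mice heterozygous for Palmd (PALMD+/-), so each side holds both genotypes. The labels name neither the allele nor how the vessel was cleaned of surrounding tissue, and do not say whether the libraries are from different animals, so p-values measure only the spread among these samples. The sides were cut by a measured value. Differences between them are therefore described and not tested, and they support no statement about a cause.

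The aorta lies in a sleeve of perivascular adipose tissue, which in the mouse is brown-like along the thoracic part and closer to white fat along the abdominal part. White adipocytes store triglyceride in a large droplet and secrete hormones, whereas brown adipocytes burn fatty acids in mitochondria whose inner membrane is made leaky by uncoupling protein 1. Smooth muscle cells and their elastic matrix make up most of the wall itself. In bulk tissue, more or fewer cells of a type and more or less RNA per cell cannot be told apart.

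The upstream sequences of 3 genes are shown as examples from brown fat (Ucp1), the lipid droplet (Plin1) and contractile smooth muscle (Myl9). Each gene and its motif were chosen by hand, so that a shown gene carries its motif is no result. Each sequence is the 250 bases before the RefSeq start site (GRCm38.p6), written 5′ to 3′ on the strand of the gene. Ucp1 lies at chr8:83290098-83290347 on the plus strand, with the nuclear receptor motif AGGTCA in capitals, 14 bases before the start. Plin1 lies at chr7:79732777-79733026 on the minus strand, with 2 matches to the C/EBP motif TTGCNNAA in capitals, 187 and 58 bases before the start. Myl9 lies at chr2:156775214-156775463 on the plus strand, with a CArG box, the motif of serum response factor, in capitals 161 bases before the start.
Ucp1: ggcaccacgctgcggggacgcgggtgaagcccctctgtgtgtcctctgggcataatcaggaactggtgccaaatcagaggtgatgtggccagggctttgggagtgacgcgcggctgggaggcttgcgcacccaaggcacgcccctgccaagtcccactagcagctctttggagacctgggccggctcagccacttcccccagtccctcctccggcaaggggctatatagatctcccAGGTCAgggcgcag
Plin1: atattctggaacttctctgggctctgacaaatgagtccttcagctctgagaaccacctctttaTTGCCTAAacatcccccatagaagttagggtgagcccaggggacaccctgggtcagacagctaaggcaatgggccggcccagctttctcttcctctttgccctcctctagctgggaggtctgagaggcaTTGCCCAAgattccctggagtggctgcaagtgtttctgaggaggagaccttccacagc
Myl9: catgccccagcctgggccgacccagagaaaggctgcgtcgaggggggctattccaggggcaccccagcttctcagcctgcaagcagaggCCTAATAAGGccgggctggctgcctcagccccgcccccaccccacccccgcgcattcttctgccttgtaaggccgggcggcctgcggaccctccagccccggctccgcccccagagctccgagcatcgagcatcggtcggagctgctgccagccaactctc
The motifs were searched on both strands, in windows reaching from 250 bases before to 50 after the start. AGGTCA or its complement was found in 16.0% of 27025 promoters, in 11.9% of the 9121 promoters of the genes compared here, in 16.3% of the 939 of genes higher in all fat-rich libraries and in 10.5% of the 1579 of genes lower in all of them. The C/EBP motif was found in 10.8%, 8.01%, 7.56% and 8.36% of these sets, and the CArG box in 1.57%, 1.38%, 1.28% and 1.71%. A match is a string of letters and not a bound site, and these shares were not tested.

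Values below are given in the order wild type 1, heterozygote 1, heterozygote 3 for the fat-poor side and wild type 2, wild type 3, heterozygote 2 for the fat-rich side. Adipoq (chr16:23146536-23158028, GRCm38) stood at 133, 85.3 and 122 FPKM in the fat-poor libraries and 187, 299 and 325 FPKM in the fat-rich ones. These values made the cut. The libraries just inside and just outside it, wild type 2 and wild type 1, differed by a factor of 1.40, which is less than the factor of 1.60 between wild type 3 and wild type 2 on the same side. The label fat-poor is therefore relative: the lowest library still held 85.3 FPKM of Adipoq, and Adipoq spanned 3.81-fold from the lowest to the highest. Plin1, the perilipin that coats the lipid droplet, stood at 60.5, 41.9 and 61.7 FPKM in the fat-poor libraries and 89.0, 131 and 204 FPKM in the fat-rich ones. Ucp1 stood at 117, 34.9 and 153 FPKM in the fat-poor libraries and 682, 489 and 790.3 FPKM in the fat-rich ones, a range of 22.6-fold. Taking the 3 highest libraries of Plin1 or of Ucp1 gave the same sides. For Ucp1 the step between the sides, 3.20-fold from heterozygote 3 to wild type 3, was about as large as the step of 3.35-fold from heterozygote 1 to wild type 1 within the fat-poor side. The white and brown adipocyte markers and lipid droplet genes together, 74 genes, made up 1.35%, 0.977% and 1.36% of all FPKM on the fat-poor side and 2.1%, 2.90% and 3.79% on the fat-rich side.

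**Figure D1:**
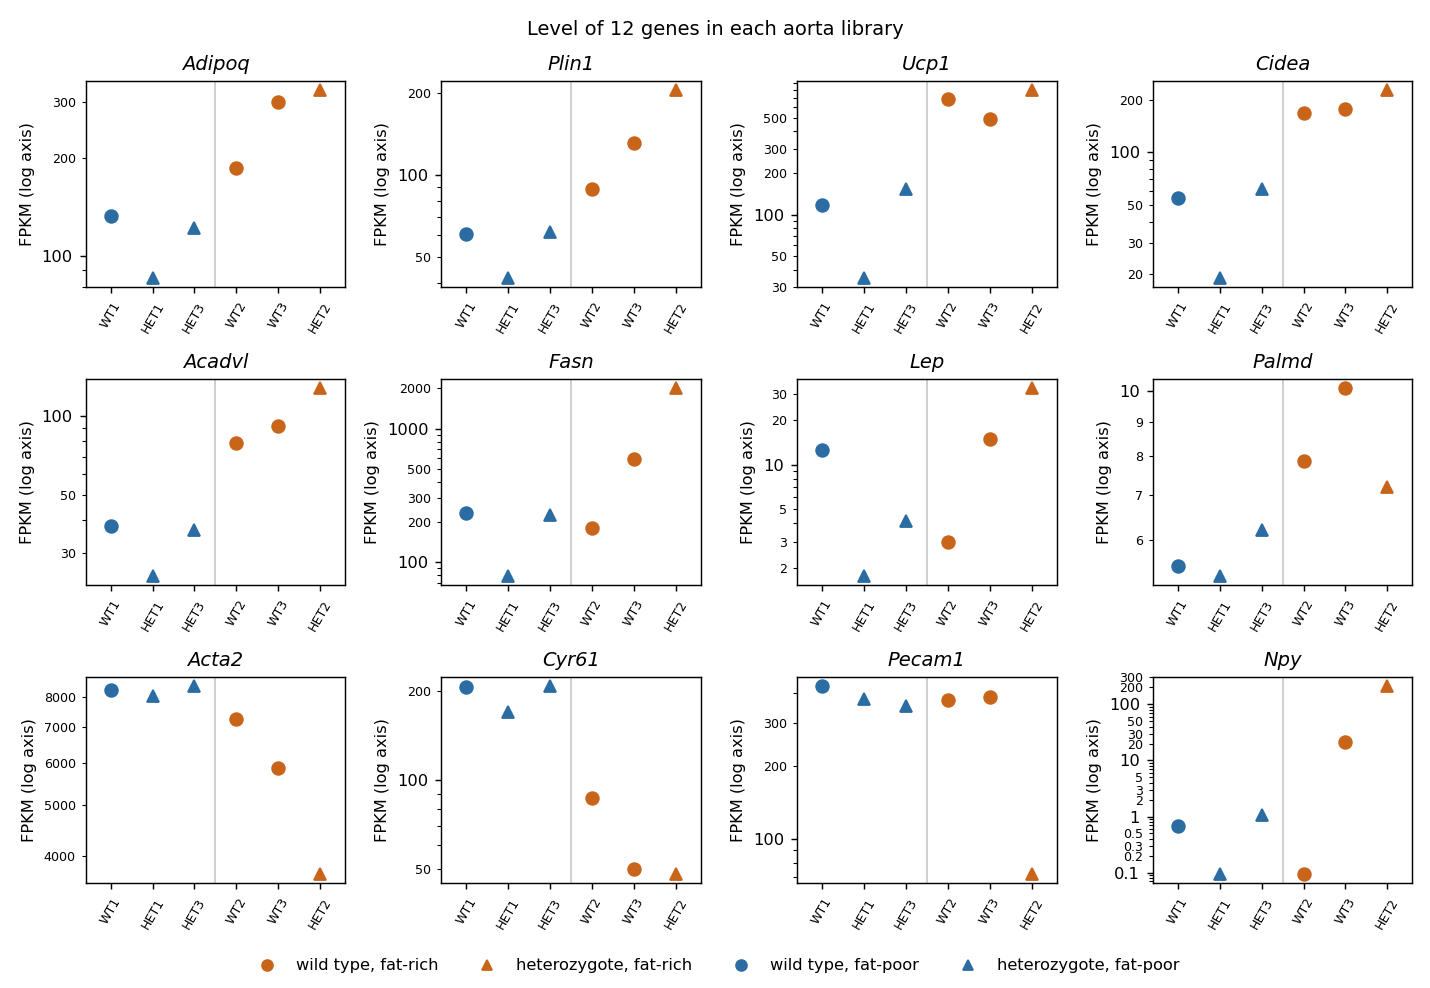
Level of 12 genes in each library, in FPKM on log axes, with fat-poor libraries left of the grey line (blue) and fat-rich ones right of it (orange), and circles for wild type (WT) and triangles for heterozygotes (HET). Ucp1 and Cidea leave a wide gap between the sides, Fasn and Lep overlap between them, Pecam1 is low in heterozygote 2 alone, and Npy is highest there and next highest in wild type 3.

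Depth was even, with 17283951 to 18372131 reads per library by which the authors had divided, which puts a single read, for a gene 2 kb long, at 0.0272 to 0.0289 FPKM. Of the 29752 genes in the files, 12620 reached 1 FPKM in 3 or more libraries and were compared. Heterozygote 2 stood apart from the rest, with a mean correlation of 0.930 with the other libraries, against 0.960 to 0.971 for those. Palmd, the targeted gene (chr3:116918258-116968987, GRCm38), which encodes palmdelphin, stood at 5.49, 7.88 and 10.1 FPKM in wild type 1 to 3 and at 5.31, 7.19 and 6.21 FPKM in heterozygote 1 to 3. The genotypes overlapped: wild type 1 lay below heterozygotes 2 and 3. The difference, heterozygote minus wild type, was -0.26 on the log2 scale (SE 0.21, n = 3 per genotype, limma adjusted p = 0.915). By side, in contrast, Palmd was higher in all 3 fat-rich libraries, at 7.88, 10.1 and 7.19 FPKM, than in any fat-poor one, at 5.49, 5.31 and 6.21 FPKM. With the side of each library as a covariate, the genotype difference was -0.11 (SE 0.14, limma adjusted p = 0.772).

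Across all genes, 1264 of 12620 (10.0%) were higher in every fat-rich library than in any fat-poor one, and 2123 (16.8%) were lower. These shares are the background for the counts of each gene list below, and since the sides were cut by Adipoq they are descriptions. Rescaling each library by the median of its ratios to the average library moved the split to 1555 (12.3%) higher and 1563 (12.4%) lower, so that the share of higher genes among those that separate the sides went from 37.3% to 49.9%. Without heterozygote 2, where 3 libraries face 2, 1822 genes (14.4%) were higher and 3084 (24.4%) lower. Leaving out a library can only keep or raise such counts, for all genes and for each list. Without wild type 1 the shares of all genes were 13.6% higher and 24.8% lower. They were 16.9% and 25.3% without wild type 2, and 11.9% and 20.4% without wild type 3. The lower genes were more numerous but separated by less: the FPKM of the nearest libraries of the sides differed by 2-fold or more for 36 genes higher in fat-rich libraries and for 5 lower, not counting genes with a side at 0. The median difference over all genes was -0.07 on the log2(FPKM + 1) scale used for every difference here. Within wild type (2 fat-rich libraries against 1) and within heterozygotes (1 against 2) the difference had the same sign for 65.7% of genes.

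Of the 15 genes with the widest gaps in the fat-rich direction, 5 are in the list of brown adipocyte genes (Ucp1, Cidea, Otop1, Cox7a1 and Cox8b). Gys2, glycogen synthase 2, stood at 2.92, 1.30 and 3.26 FPKM in the fat-poor libraries and 11.3, 11.5 and 22.6 FPKM in the fat-rich ones. Otop1, a proton channel, stood at 4.78, 1.43 and 5.22 against 14.0, 16.8 and 29.0 FPKM, and Cidea, a lipid droplet protein of brown fat, at 54.6, 19.1 and 61.5 against 168, 179 and 227 FPKM. The lowest fat-rich library exceeded the highest fat-poor one by 3.47-fold, 2.68-fold and 2.73-fold for these 3. Lpl, lipoprotein lipase, which frees fatty acids from circulating triglyceride, stood at 64.2, 46.3 and 64.3 against 152, 161 and 197 FPKM, and its fat-rich libraries lay close together. Adtrp, a lipid hydrolase, stood at 1.18, 0.554 and 1.55 against 4.79, 5.66 and 4.82 FPKM, and Dusp4, a phosphatase of MAP kinases, at 1.48, 0.879 and 1.64 against 4.85, 8.11 and 22.0 FPKM. Dusp4 was spread over the fat-rich side, with heterozygote 2 far above the others, while Adtrp was not. Cib2, Prkar2b, Aspg, Acsl1, Slc25a20, Idh3a, Cox7a1 and Cox8b completed the 15 named by size of gap, with gaps of 2.09-fold (Idh3a) to 2.52-fold (Cox7a1).

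White adipocyte markers followed the cut in 21 of 28 genes compared, Adipoq included, and in none the other way (median difference 1.21 on the log2 scale, 0.80 within wild type and 1.97 within heterozygotes). Without heterozygote 2 the counts were the same, 21 and 0, and they could not have fallen. Fabp4, the fatty acid carrier of adipocytes, stood at 202, 108 and 178 FPKM in the fat-poor libraries and 343, 496 and 543 FPKM in the fat-rich ones. Pparg, the nuclear receptor that directs fat cell formation, stood at 12, 5.92 and 12 against 20.5, 29.1 and 47.9 FPKM, and Adrb3, the beta-adrenergic receptor of adipocytes, at 20.6, 16.0 and 16.8 against 28.4, 74.4 and 85.9 FPKM. Each of them separated the sides, and for Adrb3 wild type 2 lay nearer the fat-poor libraries than the other fat-rich ones. Gpd1, which makes the glycerol backbone of triglyceride, showed the largest difference of the list, 2.27, at 136, 39.3 and 141 against 245, 352 and 1008 FPKM. Not every fat hormone followed: Lep, leptin, stood at 12.5, 1.76 and 4.13 FPKM in the fat-poor libraries and 3.00, 14.9 and 32.8 FPKM in the fat-rich ones. Wild type 2 held less Lep than wild type 1, so that the difference was -0.76 within wild type and 3.17 within heterozygotes. Resistin (Retn) separated the sides only narrowly, at 38.4, 27.6 and 47.6 against 48.4, 90.7 and 178 FPKM. Of 21 adipokines and other secreted factors compared, 10 were higher in all fat-rich libraries, counting Adipoq itself, and 1 was lower. Hp, haptoglobin, stood at 159, 100.5 and 152 against 303, 420.1 and 371 FPKM, and Angptl8, an inhibitor of lipoprotein lipase regulated by feeding, at 5.50, 3.55 and 3.99 against 5.66, 7.06 and 55.1 FPKM, where a single library, heterozygote 2, carries the difference of 1.45 (0.47 without it).

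Brown adipocyte and thermogenic genes were higher in all fat-rich libraries for 18 of the 25 compared, and 1 was lower (median difference 1.32 on the log2 scale, 1.02 within wild type and 1.48 within heterozygotes; 19 and 1 without heterozygote 2). Apart from Ucp1 and Cidea, Cox7a1 and Cox8b, the cytochrome oxidase subunits typical of brown fat and muscle, stood at 11.9, 4.20 and 10.7 against 36.6, 29.9 and 55.2 FPKM and at 46.1, 13.7 and 57.9 against 138, 125 and 210.2 FPKM. Plin5, which tethers lipid droplets to mitochondria, stood at 7.58, 1.89 and 5.30 against 17.4, 15.6 and 22.9 FPKM. In all of these heterozygote 1 was the lowest library and heterozygote 2 the highest. Some genes put wild type 2 first instead: Fabp3, a fatty acid carrier of heart and brown fat, stood at 26.3, 11.2 and 16.7 against 94.2, 42.0 and 32.6 FPKM, and Gmpr, guanosine monophosphate reductase, at 3.86, 2.97 and 4.45 against 21, 6.43 and 6.63 FPKM. Elovl3, a fatty acid elongase of brown fat, was also highest there, at 0.0732, 0 and 1.32 against 4.34, 1.49 and 1.86 FPKM. These 3 were named after their values were seen. Prdm16, the transcriptional regulator of brown fat identity that is also expressed in vessels, went the other way, at 14.2, 18.1 and 12.5 against 8.84, 9.37 and 9.03 FPKM. Dio2, which activates thyroid hormone, overlapped at 10.3, 7.64 and 11.1 against 20.1, 14.3 and 6.11 FPKM, with heterozygote 2 the lowest of all 6. Zic1, a marker of classical interscapular brown fat, was listed at 0, 0.0192 and 0 against 0.00956, 0 and 0 FPKM. The list has 31 genes in all, and the others did not reach the level for comparison.

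The balance between brown and white markers was not constant. The ratio of Ucp1 to Adipoq, both per length, was 0.881, 0.409 and 1.254 in the fat-poor libraries and 3.65, 1.64 and 2.43 in the fat-rich ones. Wild type 2 had the highest ratio although it held the least Adipoq of the fat-rich side. The ratio of Fasn, fatty acid synthase, to Adipoq was 1.76, 0.923 and 1.84 in the fat-poor libraries and 0.968, 1.97 and 6.17 in the fat-rich ones, with heterozygote 2 at least 3 times above any other library and wild type 2 among the lowest. By comparison, the ratio of Plin1 to Adipoq varied little, from 0.439 in wild type 3 to 0.629 in heterozygote 2.

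**Figure D2:**
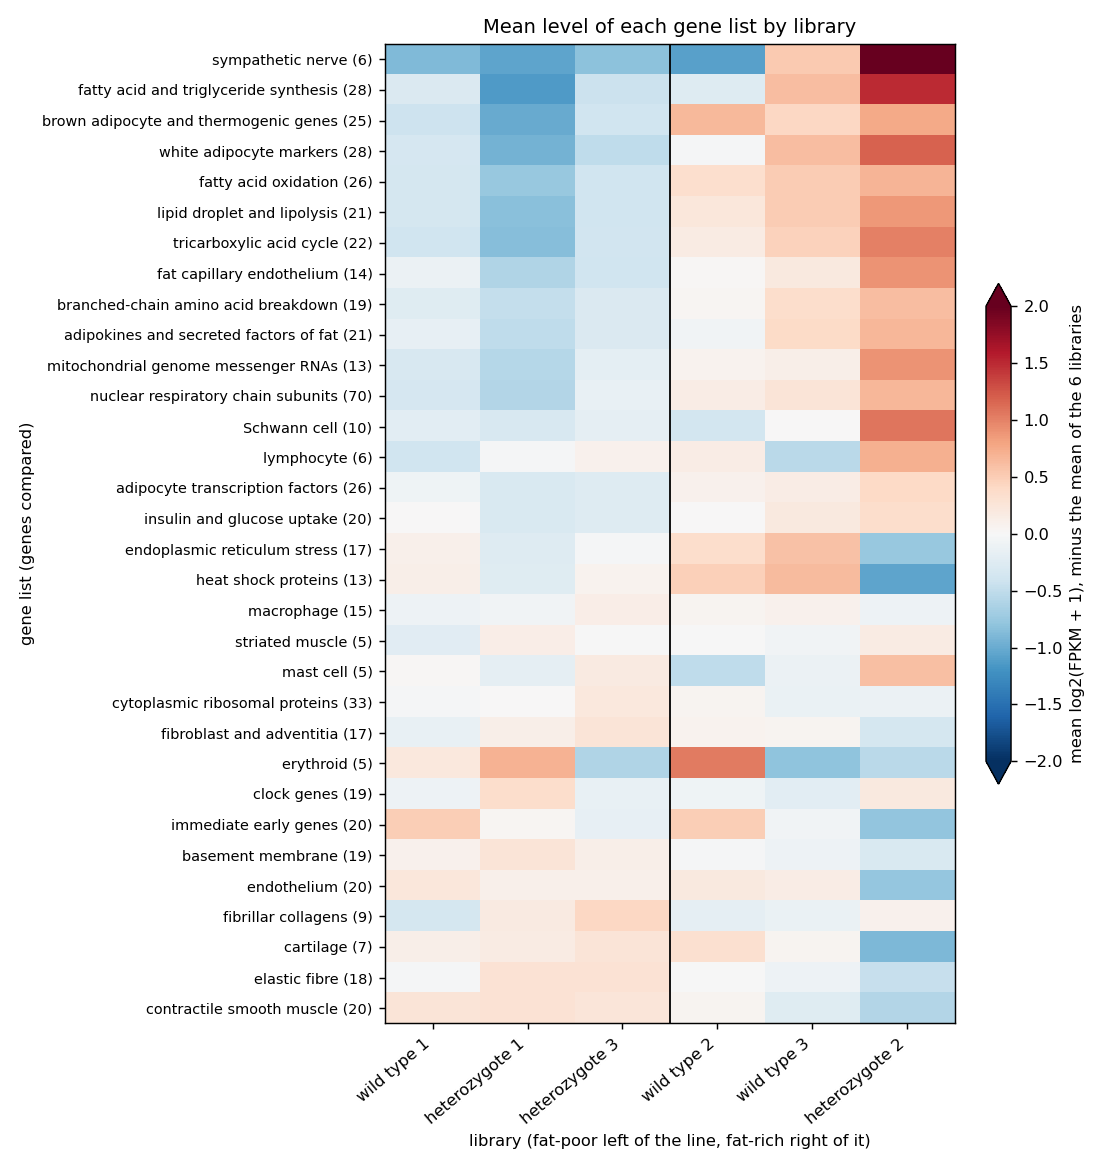
Mean log2(FPKM + 1) of each gene list in each library, minus its mean over the 6 libraries, with lists ordered by the median difference between the sides and the number of genes compared in brackets. Brown adipocyte, fatty acid oxidation and mitochondrial lists are red on the fat-rich side and blue on the fat-poor side, wild type 2 is at or below the mean for white adipocyte markers, adipokines and fatty acid synthesis, while heat shock and endoplasmic reticulum stress lists are red in wild types 2 and 3 and blue in heterozygote 2. The sympathetic nerve list of heterozygote 2 lies beyond the colour scale.

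Genes that build fatty acids and triglyceride depended on which libraries were counted: 13 of 28 were higher in all fat-rich libraries and 1, Fads2, a fatty acid desaturase, was lower (median difference 1.43 on the log2 scale, 0.49 within wild type and 2.71 within heterozygotes, and 0.81 without heterozygote 2; counts of 14 and 2 without heterozygote 2, 24 and 2 without wild type 2). Of all genes, 14.4% were higher and 24.4% lower without heterozygote 2, and 16.9% and 25.3% without wild type 2. Fasn stood at 234, 78.8 and 224 FPKM in the fat-poor libraries and 181, 589.6 and 2004 FPKM in the fat-rich ones. Acly, which supplies acetyl-CoA, stood at 141, 44.0 and 92.5 against 80.1, 338 and 964 FPKM, and Scd1, the stearoyl-CoA desaturase, at 633, 181 and 452 against 448, 1607 and 2940.1 FPKM. In these 3 genes wild type 2 lay below wild type 1, and heterozygote 2 exceeded wild type 2 by 11.1-fold, 12-fold and 6.57-fold. Dgat2 and Agpat2, enzymes that assemble triglyceride, separated the sides. Dgat2, which adds the last fatty acid, stood at 102, 38.9 and 91.3 against 188, 262 and 625 FPKM, and Agpat2, which adds the second, at 89.3, 31.6 and 85.9 against 123, 214 and 415 FPKM. Mogat2 of the same list overlapped at 0.507, 0.209 and 0.567 against 0.297, 0.545 and 4.86 FPKM, under the level for comparison. Elovl6, an elongase, stood at 8.17, 2.08 and 7.12 against 11.9, 26.1 and 67.2 FPKM. Of the regulators of this pathway, Mlxipl, the glucose-sensing factor ChREBP, stood at 23.9, 4.88 and 10.3 against 21.4, 46.9 and 82.9 FPKM, and Srebf1 at 33.2, 22.1 and 31.1 against 29.8, 47.9 and 164 FPKM. Both overlapped, again with wild type 2 within the fat-poor range. Summed over the 29 genes of the list found in the files, the level was 1978, 841 and 1690.4 FPKM in the fat-poor libraries and 1875, 4468 and 10481 FPKM in the fat-rich ones.

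Of the genes that store and release the droplet's fat, 17 of 21 were higher and none lower (median difference 1.11 on the log2 scale, 0.80 within wild type and 1.62 within heterozygotes). Plin2 stood at 41.5, 20.7 and 34.8 against 55.2, 96.2 and 127 FPKM and Aqp7, the glycerol channel, at 9.29, 5.95 and 6.97 against 16.7, 18.1 and 32.3 FPKM. Pnpla2, the first lipase of triglyceride breakdown, stood at 198, 123 and 188 against 322, 406 and 481 FPKM. For Plin4 the sides overlapped, at 95.1, 89.1 and 73.0 against 85.1, 93.7 and 119 FPKM. Among 26 transcription factors of fat cells, 10 were higher and 1, Prdm16, was lower, with a median difference of 0.20. Cebpa stood at 39.0, 29.9 and 35.0 against 56.0, 59.7 and 145 FPKM, Ppara, the receptor that drives fat oxidation, at 2.71, 1.48 and 1.41 against 5.82, 3.79 and 9.59 FPKM, and Ppargc1b, a co-activator of mitochondrial genes, at 2.07, 1.249 and 1.45 against 4.73, 4.79 and 8.4 FPKM. Of the insulin and glucose uptake genes, 6 of 20 were higher and 2, Cavin1 and Cavin2 of caveolae, lower. Without wild type 2, 11 were higher, against 16.9% of all genes. Slc2a4, the insulin-responsive glucose transporter, stood at 21.6, 10.4 and 18.0 against 22.5, 41.3 and 99.6 FPKM, its sides separated by a factor of only 1.04.

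Fatty acid oxidation separated the sides in 22 of 26 genes, none of them lower (median difference 1.18 on the log2 scale, 0.92 within wild type and 1.48 within heterozygotes; 22 and 0 without heterozygote 2). Acadvl, the first enzyme of the oxidation of long fatty acids in mitochondria, stood at 38.1, 24.6 and 36.7 FPKM in the fat-poor libraries and 79.1, 91.4 and 127 FPKM in the fat-rich ones. Hadhb, of the trifunctional protein, stood at 25.9, 11.8 and 22.8 against 48.4, 59.8 and 77.4 FPKM, and Acaa2, which performs the last step, at 83.4, 51.5 and 71.5 against 171, 185 and 274 FPKM. Cpt2 and the carnitine carrier Slc25a20 stood at 25.2, 17.9 and 26.6 against 49.7, 63.2 and 72.2 FPKM and at 12.4, 7.77 and 12.2 against 26.7, 26.8 and 30.5 FPKM. In contrast to fatty acid synthesis, wild type 2 lay well above all fat-poor libraries in each of them. Cpt1a, the liver-type gate of the pathway, overlapped at 25.0, 42.3 and 31.7 against 28.0, 23.6 and 21 FPKM.

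Mitochondrial genes went with the cut almost as a whole. In the tricarboxylic acid cycle, 21 of 22 genes were higher in all fat-rich libraries and none was lower (median difference 1.07 on the log2 scale, 0.72 within wild type and 1.53 within heterozygotes). Idh3a, of isocitrate dehydrogenase, stood at 31.3, 17.6 and 29.8 FPKM in the fat-poor libraries and 65.4, 72.9 and 105 FPKM in the fat-rich ones. Pcx, pyruvate carboxylase, stood at 72.8, 39.0 and 73.8 against 85.3, 178 and 404 FPKM, where heterozygote 2 was more than 2 times any other library. Of 70 nuclear-encoded subunits of the respiratory chain, 60 were higher and 1 lower, Atp5g1, with a smaller median difference of 0.67. Uqcrfs1, the Rieske protein, stood at 56.6, 37.6 and 44.7 against 104, 119 and 157 FPKM, and Cycs, cytochrome c, at 24.3, 13.6 and 26.0 against 42.1, 57.1 and 68.0 FPKM. Of the 13 messenger RNAs of the mitochondrial genome, 9 were higher and none lower (median difference 0.69), and their sum was 37649.7, 29093 and 36175 FPKM in the fat-poor libraries and 47951, 49405 and 69265 FPKM in the fat-rich ones. mt-Nd2, a subunit of complex I, stood at 3848, 2793 and 3701 against 5617, 5637 and 7423 FPKM. Breakdown of branched-chain amino acids, a fuel of adipocytes, followed in 17 of 19 genes (median difference 0.79), for example Bckdhb at 16.1, 13.6 and 14.4 against 21.7, 31.0 and 34.6 FPKM and Hibch at 5.73, 3.38 and 5.40 against 8.35, 11.7 and 14.0 FPKM. Without heterozygote 2 the counts for these 4 lists were the same, and they could not have fallen.

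The genes whose levels over the 6 libraries were most like those of Adipoq were Arxes1, Hsd17b12, Tmem70, Phyh, Hibch, Akap1, Hacd2, Plin2, Gstz1 and Fam213a, with Pearson correlations of 0.993 (Fam213a) to 0.997 (Arxes1), given as a description and taken only over genes with a range of at least 1 on the log2 scale. Arxes1 stood at 3.08, 1.80 and 2.53 against 4.48, 7.73 and 8.86 FPKM and Hacd2, an enzyme of fatty acid elongation, at 16.8, 10.5 and 15.0 against 26.3, 38.6 and 38.5 FPKM. Ucp1 itself correlated less closely with Adipoq, at 0.909. The exact order of the libraries by Adipoq was shared by 260 genes and that by Ucp1 by 63.

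**Figure D3:**
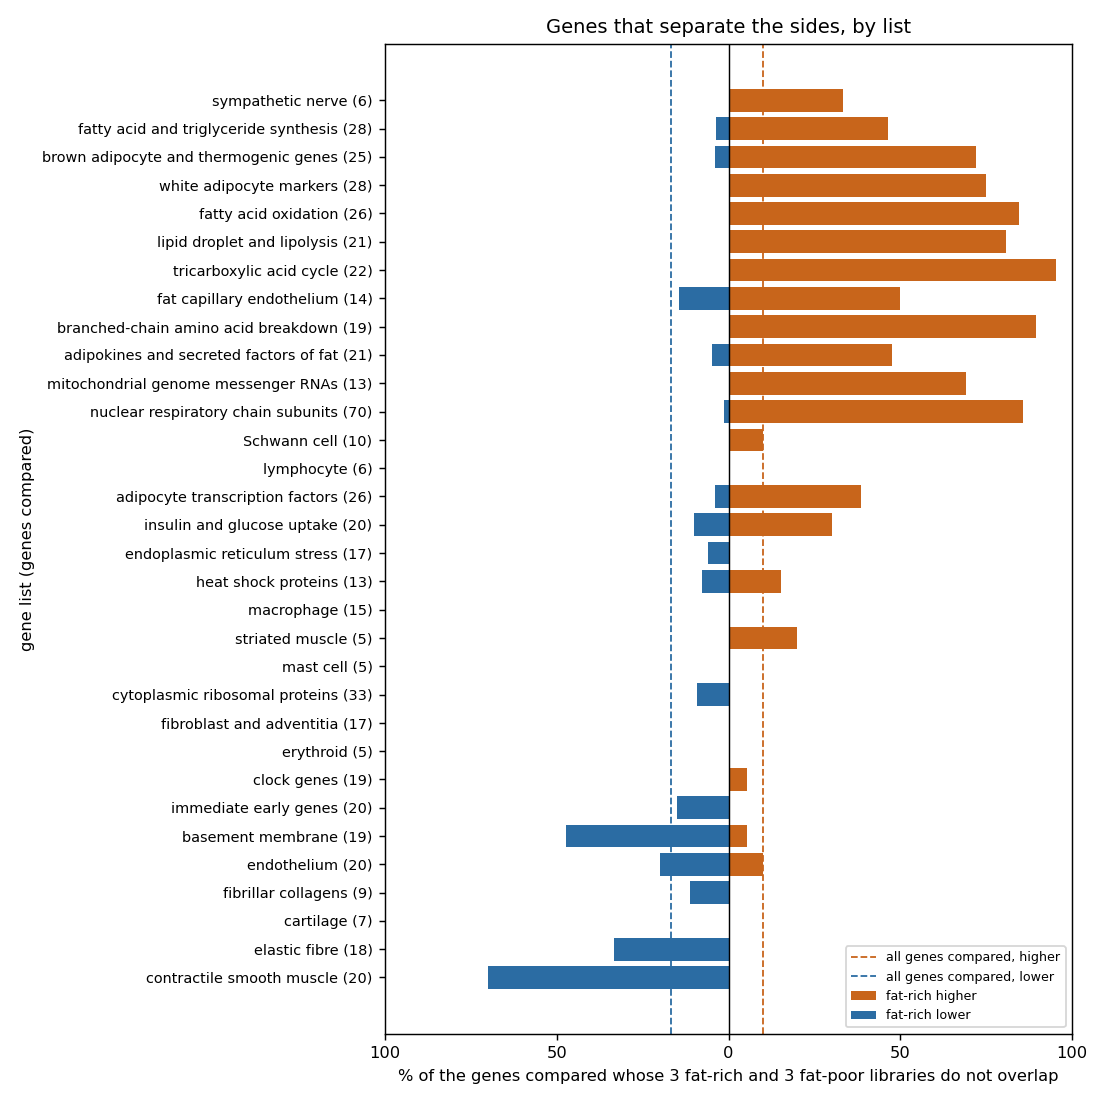
Share of the genes compared in each list whose 3 fat-rich libraries all lie above (orange, right) or all below (blue, left) the 3 fat-poor ones, with the shares over all 12620 genes as dashed lines (10.0% higher, 16.8% lower). The tricarboxylic acid cycle reaches 95.5% on the right and contractile smooth muscle 70.0% on the left, and several lists of other cell types have no bar.

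In the opposite direction, contractile smooth muscle had the largest share of lower genes of any list: 14 of 20 genes were lower in all fat-rich libraries and none higher (median difference -0.53 on the log2 scale, -0.33 within wild type and -0.86 within heterozygotes; -0.35 and 14 lower without heterozygote 2, and 11 after rescaling by the median ratio). All 20 differences were negative, both within wild type and within heterozygotes. Acta2, smooth muscle actin, stood at 8235, 8012 and 8367 FPKM in the fat-poor libraries and 7252, 5866 and 3701 FPKM in the fat-rich ones. Myh11, smooth muscle myosin, stood at 974, 1166 and 1059 against 825, 624 and 612 FPKM, and Cnn1, calponin, at 430.3, 429 and 435 against 387, 333 and 203 FPKM. Myl9, the regulatory light chain, stood at 1919, 2408 and 2562 against 1853, 1372 and 1256 FPKM, its sides separated by a factor of only 1.04. The 3 fat-poor libraries lay close together for Acta2 and Cnn1, and heterozygote 2 was the lowest of all for each of the 4. Myocd, the co-activator of serum response factor, overlapped at 19.2, 18.4 and 11.2 against 12.5, 9.37 and 5.36 FPKM. Tagln, usually an abundant gene of this cell type, was listed at only 4.29, 3.20 and 4.16 against 3.78, 3.02 and 2.12 FPKM. An annotated antisense gene overlaps it, and reads of the pair cannot be told apart here, since the counting is not given in the sources used. Summed, the list held 13623, 14148 and 14475 FPKM in the fat-poor libraries and 12145, 9648 and 6930.2 FPKM in the fat-rich ones.

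Basement membrane genes were lower in 9 of 19 and higher in 1, and elastic fibre genes lower in 6 of 18 and higher in none. After rescaling the elastic fibre count was 3, without wild type 1 it was 16 and without wild type 2 it was 11. Of all genes, 12.4%, 24.8% and 25.3% were lower in these 3 settings. The network-forming collagens of special basement membranes were among them: Col4a5 stood at 44.7, 60.2 and 48.9 against 35.9, 31.9 and 31.6 FPKM and Col4a3 at 3.96, 5.69 and 4.47 against 3.52, 2.66 and 1.70 FPKM. Lamb1, a laminin chain, was the 1 that was higher, at 7.48, 7.69 and 8.38 against 9.52, 12.5 and 13.8 FPKM. Lox, which crosslinks elastin and collagen, stood at 83.2, 98.0 and 91.8 against 65.3, 67.6 and 46.7 FPKM, and Ltbp4, which binds latent TGF-beta to microfibrils, at 668, 705 and 672 against 609, 554 and 256 FPKM, with heterozygote 2 far below the rest. Eln itself, elastin, overlapped at 622, 873 and 914 against 661, 615 and 408 FPKM. Of 9 fibrillar collagens 1, Col5a2, was lower in all fat-rich libraries, and 6 were without wild type 1. By genotype, in contrast, 4 of the 9 were higher in every heterozygote than in any wild type and 1 was lower, against 7.80% and 5.12% of all genes: Col1a1, among the 4, stood at 512, 713 and 578 FPKM in wild type 1 to 3 and at 1100.1, 868 and 1398 FPKM in heterozygote 1 to 3. No gene of the list passed the genotype test.

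The 15 single genes with the widest gaps in the lower direction had varied roles. Cyr61, a matricellular protein also called CCN1, stood at 207, 170.4 and 208 FPKM in the fat-poor libraries and 87.0, 49.8 and 48.1 FPKM in the fat-rich ones. Abra, an actin-binding protein of muscle, stood at 12.5, 12.1 and 12.2 against 5.90, 4.66 and 2.96 FPKM, and Rnd3, a small GTPase, at 30.3, 28.2 and 29.2 against 16.0, 14.0 and 17.5 FPKM. Adra2a, an adrenergic receptor, stood at 25.0, 44.9 and 43.9 against 12.4, 10.2 and 7.14 FPKM, and Htr1b, a serotonin receptor of vessels, at 13.7, 12.3 and 11.5 against 7.12, 4.65 and 4.40 FPKM. The fat-poor libraries were nearly level for Abra and Rnd3 and less so for Adra2a. Tbx18, a transcription factor of mural cells, stood at 9.22, 13.6 and 9.24 against 5.57, 4.81 and 4.97 FPKM, and Bmp4 at 61.9, 70.4 and 70.7 against 38.1, 40.9 and 21.1 FPKM. Degs2, Fbxo30, Slc26a4, Sh3rf2, Rasl11b and Srpk3 were named by the same rule, with gaps of 1.50-fold (Rasl11b) to 2.63-fold (Slc26a4). Slc26a4 stood at only 1.13, 1.67 and 1.14 against 0.210, 0.429 and 0.354 FPKM. It reached the level for comparison through the fat-poor side alone, so its separation is partly a product of the filter. Mir221, a gene of 95 bases that contains a microRNA, headed the ranking with 3, 5 and 7 reads in the fat-poor libraries and 0 in all 3 fat-rich ones, too few reads for a fold. Mir221 too reached the level for comparison through the fat-poor side alone.

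Endothelial genes did not follow the cut as a group: 2 of 20 were higher and 4 lower (median difference -0.33, 0.01 without heterozygote 2). Without wild type 2 or wild type 3, 7 were lower, against 25.3% and 20.4% of all genes. Pecam1 stood at 424, 375 and 352 FPKM in the fat-poor libraries and 372, 382 and 72.0 FPKM in the fat-rich ones. Only heterozygote 2 was low, and the same held for Tek at 62.7, 58.2 and 63.7 against 54.6, 59.5 and 17.6 FPKM. Vwf, at 114, 122 and 109 against 103, 102 and 27.6 FPKM, was lower in all 3 fat-rich libraries. Its sides were separated by a factor of only 1.06, and heterozygote 2 was far below the rest. Sox17, an arterial endothelial factor, was lower in all 3 fat-rich libraries, at 23.8, 23.1 and 23.7 against 14.2, 13.8 and 6.90 FPKM. Genes of the capillaries of fat and muscle took the other course, 7 of 14 higher and 2 lower (median difference 1.01, 0.50 without heterozygote 2 and 0.21 within wild type). This list also holds Fabp4, counted above among the white adipocyte markers, so the counts of the lists are not separate. Cd36, the fatty acid transporter that adipocytes also carry, stood at 108, 48.6 and 67.1 against 149, 223 and 259.7 FPKM, and Rgcc at 44.5, 28.0 and 35.2 against 70.4, 76.6 and 119 FPKM. Kdr, a VEGF receptor, stood at 4.82, 3.43 and 3.95 against 5.30, 5.42 and 14.6 FPKM. Whether the endothelium of the aortic lumen was lost from heterozygote 2 was not tested.

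**Figure D4:**
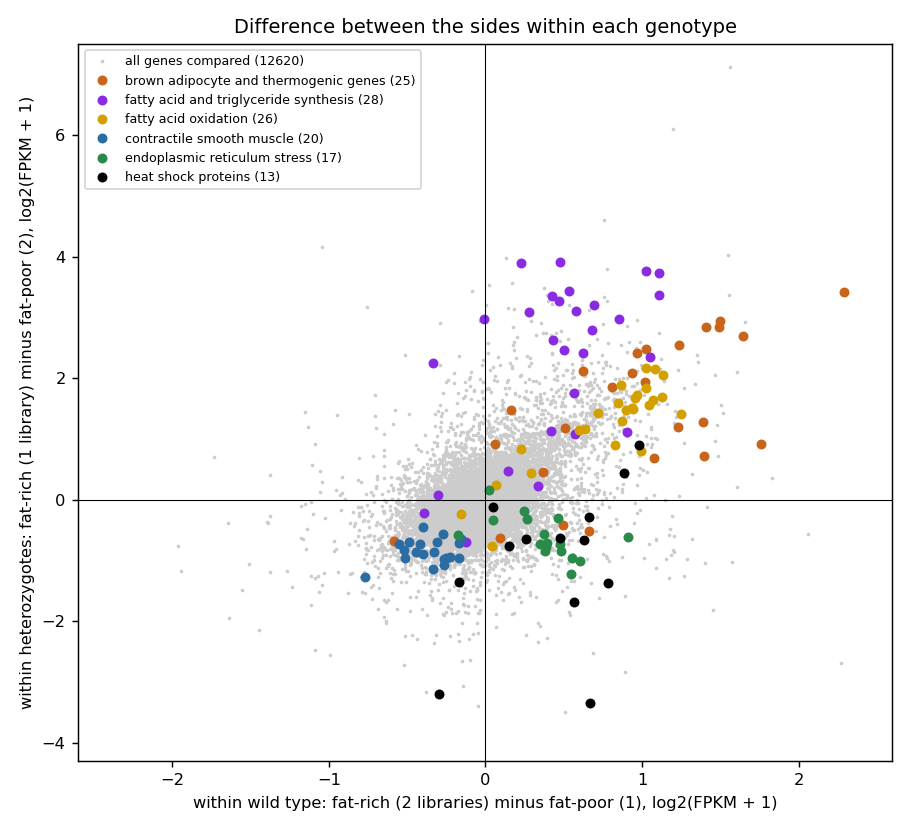
Difference between fat-rich and fat-poor libraries of each of 12620 genes (grey) within wild type (horizontal axis) and within heterozygotes (vertical axis), in log2(FPKM + 1). Fatty acid oxidation and brown adipocyte genes lie mostly in the upper right, contractile smooth muscle in the lower left, fatty acid synthesis high but near the middle, and stress genes mostly in the lower right.

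Several lists of other cell types held no gene that separated the sides. Fibroblast and adventitia genes gave 0 of 17 higher and 0 lower, though 11 were lower when wild type 1 was left out (24.8% of all genes). Lum, lumican, stood at 93.6, 106 and 125 against 99.3, 95.3 and 76.5 FPKM. Macrophage genes gave 0 and 0 of 15, with Cd68 at 10.5, 11.9 and 13.4 against 12, 11.1 and 9.30 FPKM. The same counts, 0 and 0, were found for the 6 lymphocyte, 5 mast cell, 5 erythroid, 7 cartilage and 2 mesothelial genes compared, lists too short to show that a cell type did not differ. All 6 lymphocyte differences were positive, and 4 genes were higher without wild type 3 (11.9% of all genes). Without heterozygote 2, 3 mast cell genes were lower (24.4% of all genes). The summed erythroid list was 232, 312 and 112 FPKM in the fat-poor libraries and 434, 96.6 and 113 FPKM in the fat-rich ones, high in wild type 2 and heterozygote 1, 1 on each side. Striated muscle held 20 genes, of which 12 were under 1 FPKM in every library and 1 of the 5 compared was higher on the fat-rich side. Ckm and Myh6, among those under 1 FPKM, stood at 0.958, 0.790 and 0.789 against 0.635, 0.400 and 0.338 FPKM and at 0.310, 0.276 and 0.354 against 0.146, 0.0700 and 0.574 FPKM. Other members were higher: the 20 genes summed to 32.8, 85.5 and 51.3 FPKM in the fat-poor libraries and 38.6, 34.8 and 56.9 FPKM in the fat-rich ones, highest in heterozygote 1. Mesothelial Msln was at 0.104, 0.0259 and 0.0259 against 0.0515, 0.289 and 0.164 FPKM. None of the 8 neutrophil genes reached the level for comparison, with sums of 0.260 to 10.7 FPKM. Of 33 cytoplasmic ribosomal protein genes 3 were lower, 0 after rescaling and 21 without wild type 2 (25.3% of all genes).

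Nerve genes were far higher in heterozygote 2 than in any other library, and next highest in wild type 3. Npy, neuropeptide Y, stood at 0.677, 0.0968 and 1.06 FPKM in the fat-poor libraries and 0.0962, 21.4 and 208 FPKM in the fat-rich ones. Th, tyrosine hydroxylase, stood at 0.116, 0 and 0.324 against 0, 3.81 and 66.7 FPKM, and Dbh, which makes noradrenaline, at 0.346, 0.0203 and 0.407 against 0, 5.88 and 120.4 FPKM. Heterozygote 2 exceeded wild type 3, the next library, by 9.75-fold, 17.5-fold and 20.5-fold, and wild type 2 held no more than the fat-poor libraries. The 9 genes of the sympathetic list summed to 32.7, 30.3 and 33.5 FPKM in the fat-poor libraries and 31.2, 80.4 and 745 FPKM in the fat-rich ones. Schwann cell genes summed to 29.2, 27.1 and 31.2 FPKM in the fat-poor libraries and 27.0, 37.2 and 99.4 FPKM in the fat-rich ones, again highest in heterozygote 2, with a median difference of 0.56, or 0.03 without heterozygote 2. Without wild type 2 all 6 sympathetic genes compared and 8 of 10 Schwann cell genes were higher in the fat-rich libraries, against 2 and 1 with it. Of all genes, 16.9% were higher without wild type 2 and 10.0% with it. Cytl1, a secreted protein of cartilage, was low in the same library alone, at 950.1, 779 and 930.0 against 895, 830.1 and 101 FPKM. The part of nerve tissue in the other values of heterozygote 2 was not tested.

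Stress genes were high in the fat-rich wild types and low in heterozygote 2, the single fat-rich heterozygote, so that genotype and library cannot be told apart within that side. Over both sides, 11 of 17 genes of endoplasmic reticulum stress and 7 of 13 heat shock genes were lower in every heterozygote than in any wild type (5.12% of all genes), and none passed the genotype test. Of 17 genes of endoplasmic reticulum stress, none was higher in all fat-rich libraries and 1 was lower, but without heterozygote 2 the counts were 14 and 1. Of all genes, 14.4% were higher and 24.4% lower without heterozygote 2. Hspa1b, an inducible chaperone, stood at 99.5, 67.9 and 98.8 FPKM in the fat-poor libraries and 149, 168 and 7.16 FPKM in the fat-rich ones. Hsp90aa1 stood at 112, 77.3 and 95.0 against 153, 208 and 69.8 FPKM, and Sdf2l1, an endoplasmic reticulum protein, at 20.1, 8.95 and 17.5 against 33.2, 45.3 and 7.83 FPKM. In all 3 the highest libraries were wild types 2 and 3, and heterozygote 2 was the lowest. Hspd1 and Hspe1, the chaperone pair of mitochondria, were the 2 of 13 heat shock genes that followed the cut (9 without heterozygote 2), at 69.9, 44.0 and 61.3 against 119, 162 and 98.2 FPKM and 40.9, 28.8 and 44.9 against 68.5, 85.3 and 49.2 FPKM, and Dnajb1 was the 1 that was lower. Of 20 immediate early genes, 3 were lower, among them Jun at 70.2, 76.4 and 75.3 against 49.9, 48.4 and 33.2 FPKM. Without wild type 2, 9 were lower, against 25.3% of all genes. Clock genes did not separate the sides, apart from Bhlhe40 at 14.2, 23.6 and 14.0 against 32.9, 24.7 and 46.7 FPKM. Dbp, an output gene of the clock, stood at 2.72, 40.5 and 8.96 against 3.38, 0.965 and 35.2 FPKM, high in heterozygotes 1 and 2.

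The comparison of genotypes is the one the study was built for, and here the sides enter it as a difference that the genotypes share unevenly, with 2 fat-rich libraries among the wild types and 1 among the heterozygotes. Mean Adipoq was 206 ± 84.6 FPKM for wild type and 177 ± 129 FPKM for heterozygotes (SD, n = 3 each), a log2 difference of -0.37 (95% interval -1.67 to 0.92, limma adjusted p = 0.953). For Ucp1 the difference was -1.06 (95% interval -3.92 to 1.80, limma adjusted p = 0.939). Both intervals, not adjusted for the number of genes, hold differences in either direction, so these libraries do not settle a genotype difference in these genes. No gene of 12620 (0.00% in either direction) passed an adjusted p of 0.05 in limma, 820 had an unadjusted p under 0.05, and 984 genes (7.80%) were higher and 646 (5.12%) lower in every heterozygote than in any wild type. With the side as a covariate again 0 genes passed, and the count at an unadjusted p under 0.05 was 1531. With the log2 level of Adipoq as the covariate 0 passed, the smallest adjusted p was 0.0688, and 2513 had an unadjusted p under 0.05. Those covariates were read from the same libraries. Of the 28 white and 25 brown adipocyte genes compared, none was higher or lower in every heterozygote, and the median genotype differences were -0.26 and -0.48, against 0.01 over all genes.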

How the data were processed

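RNA of mouse aorta was sequenced in 6 libraries, 3 per genotype, after poly-T selection and random priming, per the labels' protocols. The deposited values were scaled by the authors to gene length and depth and are read here as FPKM from the values themselves, since no label or header tells FPKM from RPKM. The submitters' processing notes name the build GRCm38 and, with no role given, TopHat2, HISAT2 2.1.0 and Bowtie2 2.2.3, and the counting tool is not given in the sources used here. Multiplied by gene length (GENCODE M21), 95.5% to 96.0% of low values were whole reads within 0.01 reads, which gave the depth. The column headers number the heterozygotes differently from the titles, and titles were used.

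The members and the 34 gene lists were chosen with earlier results of these data known. Named were Adipoq, Plin1, Ucp1 and Palmd, the 15 widest gaps in each direction (without predicted genes, pseudogenes and sex-linked genes, read as chromosome Y, Xist and Tsix, so that Mir221 and Srpk3 of chromosome X stayed), up to 6 genes per list with the largest difference, and the 10 most like Adipoq. Other genes with values were chosen after their values were seen. Genotype was tested with limma 3.58.1 (R 4.3.3, trend) on log2(FPKM + 1), which understates low genes, with Benjamini-Hochberg adjustment, and checked on simulated data. Python 3.11.15, numpy 2.4.6, pandas 2.3.3 and matplotlib 3.10.9 were used. A few genes are not reported here. Of 677 list entries, 676 were found. These are 643 distinct genes, since some genes are in more than 1 list.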

Additional observations from a re-analysis of the deposited data

Results flagged for a closer look

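Some gene lists differed between the sides in opposite directions in the 2 genotypes, comparing the mean log2 level of fat-rich with fat-poor libraries, with all wild-type libraries moving one way and all heterozygote libraries the other. These differences were not tested, and within each genotype a side can be a single library. Heat shock proteins were 0.43 higher within wild type and lower within heterozygotes, at -0.98, a difference of 1.41. Endoplasmic reticulum stress genes stood at 0.37 and -0.62, a difference of 1.00. Fibroblast and adventitia genes stood at 0.21 and -0.54, a difference of 0.76, fibrillar collagens at 0.19 and -0.20, a difference of 0.39, and macrophage genes at 0.18 and -0.14, a difference of 0.32. Mast cell genes went the other way, at -0.34 within wild type and 0.61 within heterozygotes, a difference of -0.95. In each of the heterozygote values the fat-rich side is heterozygote 2 alone.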

How the results depend on the processing

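The counts of genes that separate the sides moved with the settings. Genes higher in fat-rich libraries numbered 1969 with no filter on low values (7.26% of the genes then compared, against 10.0%) and 320 when the gap had to be at least 25%, and those lower numbered 1399 with a minimum of 5 FPKM (18.8%, against 16.8%) and 89 with the same gap. Leaving out 1 library gave 1431 to 2137 higher and 2417 to 3352 lower, with the largest counts without wild type 2 (2137 higher, 3188 lower) and without heterozygote 3 (3352 lower). Fewer libraries overlap less by construction. Counts for the lists were given above where 1 library moved them most, and counts of 4 or fewer moved by 1 to 3 genes in others. The median-ratio factors were 0.980 to 1.006 in the fat-rich libraries and 1.012 to 1.038 in the fat-poor ones. Dividing by them can only add higher genes and only remove lower ones. That all 1264 higher genes remained among the 1555 is therefore arithmetic. Equalizing the sums without the mitochondrial genome left 38.6% of the separating genes higher. No genotype call was made with other pseudocounts, filters, scalings or covariates. Leaving out 1 library gave 0 to 1 calls: Gm17720 without wild type 1, Trbd1 without wild type 2, Zbtb16 without heterozygote 1 and Nr1d1 without heterozygote 3. With the title number as a block 0 genes passed (smallest adjusted p = 0.790). Same-numbered deviations from the genotype means correlated at 0.51, -0.09 and -0.34. The highest correlation, 0.55, was between wild type 3 and heterozygote 2, both fat-rich. The deviations include any difference in fat, so whether the numbers pair the libraries cannot be told from them. For the 213 named genes, 1655 of 1917 alternative values lay within the spread of the libraries and 262 moved. A gene that separates the sides cannot change sign when libraries are left out or 1 genotype is taken alone. After rescaling, where it could, none did. Of the overlapping genes, 53 changed sign in 96 values. With 3 libraries a side, small differences are not detectable.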
